A study of Mus musculus with 360 samples.

Results

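Single cells sorted from the posterior frontal (PF) suture were compared with single cells sorted by the same scheme from the growth plate (GP) of the tibia. Both groups were wild-type CD-1 mice at postnatal day 3 with no treatment. All cells carried the surface proteins CD51 and CD200 and lacked the blood, endothelial and other lineage proteins the study selected against, which is its definition of skeletal stem and progenitor cells. The members are the cells of these 2 tissues in which 500 or more genes were read and the reads came to 10000 or more, 165 of the 325 cells of the series that passed. Of them 87 were PF cells (34 on plate 1 and 53 on plate 2) and 78 were GP cells (20 on plate 1 and 58 on plate 2). The other 2 tissues of the series, the coronal (COR) and sagittal (SAG) sutures, appear only as levels beside these.

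No label ties a cell to a mouse, so each tissue counted as 1 sample, and no difference given here could be checked on replicates or carries a p-value. The 2 plates of a tissue give the only spread, and plate and tissue cannot be told apart because every tissue had plates of its own. The question the comparison addresses is how progenitors of a skull suture differ from the growth plate cells that the study used as its reference.

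A suture is the fibrous joint between flat bones of the skull, and these bones form mostly by direct deposition of bone matrix by osteoblasts. Among the sutures of the mouse skull vault the posterior frontal is the one that normally ossifies shut, and cartilage forms within it on the way. The growth plate is the cartilage layer near the end of a long bone, where chondrocytes divide, enlarge and are replaced by bone. The frontal part of the skull derives largely from neural crest and the tibia from limb mesoderm, and homeobox genes mark the position of each along the body.

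Depth differed more between the PF plates than between the tissues. Reads other than those of Rn45s, the ribosomal RNA precursor, had a median of 312083 per PF cell and 369308 per GP cell, and genes with a read a median of 2512 and 2967. PF plate 1 was the shallowest with a median of 125830 reads, against 511698 on PF plate 2. After each cell was thinned to 100000 reads, which left out 17 PF cells and 11 GP cells, the medians of genes with a read were 2505.5 and 2903. Rn45s took 25.8% to 30.96% of the reads on the 4 plates and was left out of all totals below. A level is given in CPM, the reads of a gene summed over the cells of a plate and scaled to a common total, and fold differences as log2((PF + 1)/(GP + 1)) of CPM, which understates the difference of weakly expressed genes. Intervals are exact at 95% and cover counting error only, since reads were not molecules and cells were not animals. A lower level of a summed gene can mean fewer cells with its RNA or less RNA per cell, so shares of cells are given beside the main levels.

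Plates of one tissue differed more than the summed tissues did. Of 9584 genes with at least 10 CPM in PF or GP, 40.4% differed at least 2-fold between the PF plates, 35.9% between the GP plates and 27.3% between the summed tissues. A gene was therefore placed on the PF or GP side only where all 4 comparisons of a PF plate with a GP plate had the same sign. This placed 1671 genes on the PF side, 17.4% of those compared, and 1843 on the GP side, 19.2%. The comparisons were each at least 2-fold for 291 genes higher in PF, 3.04%, and 455 higher in GP, 4.75%. The median log2 difference over all genes was 0.10, and list medians below are to be read against it. These medians use reads summed over a tissue, so they weight plate 2 most. Plate 2 gave 24384274 of 30299518 PF reads and 23531000 of 28471545 GP reads. Counts of list members on a side are likewise to be read against the shares just given. At the 2-fold limit, Pth1r lay just inside on the PF side with a smallest log2 ratio of 1.01 and Aplf just outside with 0.997, and Arf6 and Zswim4 took these places on the GP side with 1.00 and 0.998.

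**Figure D1:**
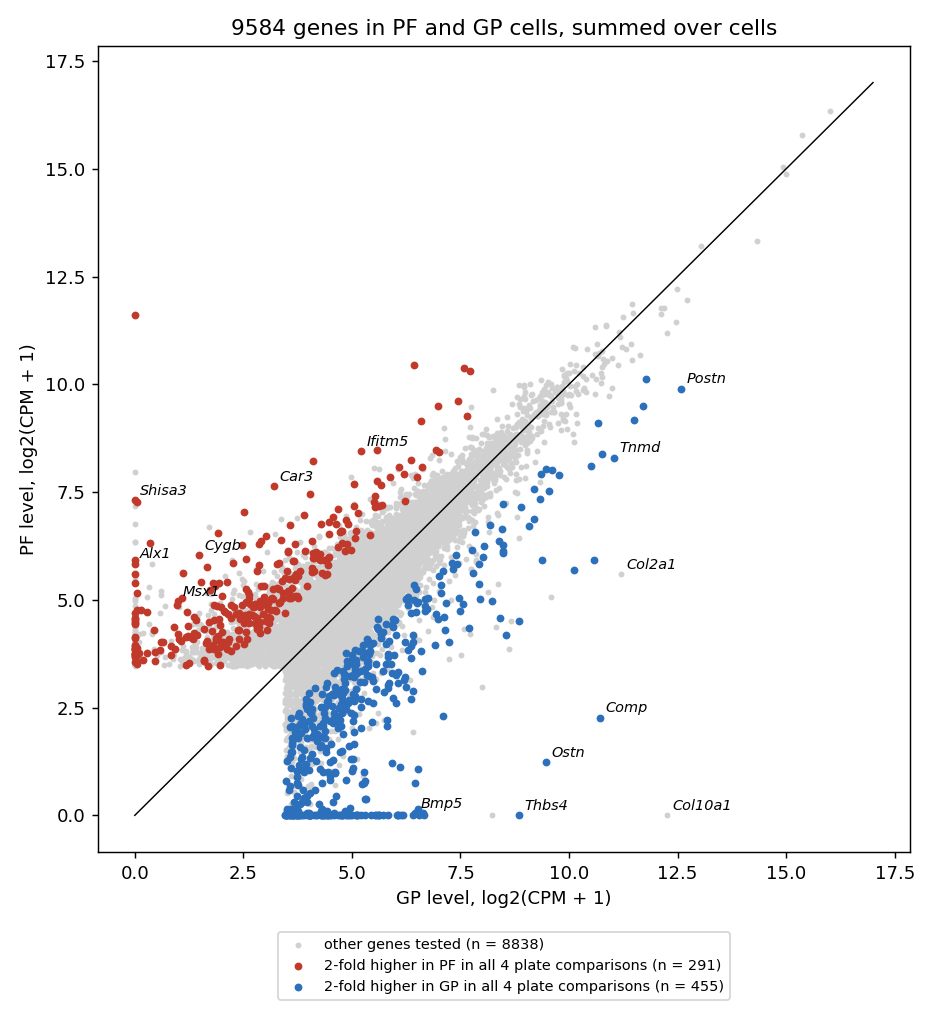
Level of each of the 9584 genes in PF (vertical axis) and GP (horizontal axis), both as log2(CPM + 1) summed over the cells of the tissue, with the line of equal levels. The 291 red and 455 blue points are genes at least 2-fold apart in all 4 plate comparisons. Shisa3 and Alx1 lie at 0 in GP, and Thbs4 and Col10a1 lie at 0 in PF, although Col10a1 is grey because it was also at 0 on GP plate 1.

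The genes that marked the PF side were Shisa3, Cygb and Car3. Shisa3, an inhibitor that holds back Wnt and FGF receptors, stood at 219.6 and 143.5 CPM on PF plates 1 and 2 and at 0 on both GP plates. A read was present in 34 PF cells, 39.1% (28.8 to 50.1), and in 0 of 78 GP cells, a count that allows up to 3 cells (3.85%) and has an exact interval reaching 4.62%. Against a floor of 3 reads over all GP cells the PF level was at least 1503-fold higher. Cygb, the oxygen-binding protein cytoglobin, had 88.2 and 59.1 CPM on the PF plates and 0 and 2.17 on the GP plates, with reads in 25 PF cells and 1 GP cell. Car3, a carbonic anhydrase that also protects thiol groups, had 254.8 and 183.7 CPM against 1.82 and 9.65, with reads in 27 PF cells and 4 GP cells. None of these genes overlapped between the tissues on any plate, which follows from how they were chosen. Shisa3 shares its locus (mm9, chr5:67999122-68014791, plus strand) with Atp8a1 on the other strand, whose reads cannot be told apart where the 2 overlap, and Atp8a1 had 21.8 and 33.3 CPM in PF and 11.5 and 10.6 in GP. Cygb lies at chr11:116506909-116515627 on the minus strand and Car3 at chr3:14863538-14872351 on the plus strand.

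The GP side was marked by Ostn and Comp. Ostn encodes osteocrin, a secreted peptide that occupies the clearance receptor of C-type natriuretic peptide, and lies at chr16:27307575-27351298 on the plus strand (mm9). Its level was 2.20 and 1.15 CPM on the PF plates and 312.1 and 794.7 on the GP plates, with reads in 2 PF cells, 2.299% (0.28 to 8.06), and 26 GP cells, 33.3% (23.1 to 44.9). Comp, a matrix protein of cartilage and tendon at chr8:72897447-72905964 on the plus strand, had 8.79 and 2.58 CPM against 581.7 and 1893, with reads in 2 PF cells and 29 GP cells. The lowest GP plate of each gene lay far above the highest PF plate, and lying above it was a condition of their choice. Of the GP reads of Comp, 86.1% came from 1 cell of plate 2, and that cell also held 62.8% of the GP reads of Col2a1 and 90.3% of those of Lect1.

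Bone and tendon genes marked the tissues as well. Ifitm5, a small membrane protein of bone-forming osteoblasts, had 347.4 and 348.0 CPM on the PF plates and 14.98 and 40.5 on the GP plates, in 27 PF cells and 6 GP cells. Tnmd, the tendon membrane protein tenomodulin, had 311.4 and 315.4 CPM on the PF plates and 2927 and 1913 on the GP plates, in 36 PF cells and 41 GP cells. For Tnmd the share of cells was close, 41.4% (30.9 to 52.4) in PF and 52.6% (40.9 to 63.99) in GP, while the summed level differed by 2.73 on the log2 scale.

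The 250 bases before the start of these genes are shown for Shisa3, Ifitm5 and Tnmd because each stands for one of the 3 groups of genes that recur below. The sequences are from RefSeq (GRCm38.p6), written 5′ to 3′ on the strand of the gene, at chr5:67607633-67607882 (plus), chr7:140950244-140950493 (minus) and chrX:133850758-133851007 (plus). Capitals mark matches on either strand to the TATA box TATAAA, the Runx core TGTGGT, the homeodomain core TAATTA or the GC box GGGCGG.
Shisa3: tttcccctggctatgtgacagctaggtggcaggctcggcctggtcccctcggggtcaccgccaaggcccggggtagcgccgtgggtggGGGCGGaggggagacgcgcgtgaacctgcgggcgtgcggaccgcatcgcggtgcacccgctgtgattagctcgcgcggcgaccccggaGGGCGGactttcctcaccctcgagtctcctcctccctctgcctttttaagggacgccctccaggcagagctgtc
Ifitm5: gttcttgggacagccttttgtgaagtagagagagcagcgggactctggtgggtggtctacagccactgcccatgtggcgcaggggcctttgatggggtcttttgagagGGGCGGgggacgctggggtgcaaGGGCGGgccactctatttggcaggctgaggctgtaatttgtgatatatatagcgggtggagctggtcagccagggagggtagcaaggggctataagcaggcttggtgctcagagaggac
Tnmd: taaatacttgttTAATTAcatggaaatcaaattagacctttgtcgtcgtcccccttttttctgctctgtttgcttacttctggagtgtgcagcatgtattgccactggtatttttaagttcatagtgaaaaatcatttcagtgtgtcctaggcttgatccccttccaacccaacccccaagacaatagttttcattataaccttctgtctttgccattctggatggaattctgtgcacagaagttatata
Shisa3 and Ifitm5 each held 2 GC boxes, and Tnmd held the homeodomain core. The conditions given below for leading genes, before their ranking, were met by 65 PF and 119 GP genes. Over those of them in the sequence table, the GC box was present in 60.98% of 41 PF promoters and 57.9% of 95 GP promoters, against 32.9% of all 27025 promoters. The TATA box was present in 4.88%, 15.8% and 12.97%, the Runx core in 7.32%, 13.7% and 14.2%, and the homeodomain core in 0%, 3.16% and 4.90%. A match is a description of these letters and not of binding. The 27025 promoters were not limited to genes read in these cells, whereas the leading genes had to be. The shares therefore do not compare leading genes with other expressed genes.

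The 20 leading genes of each side were chosen among genes 2-fold apart in all 4 comparisons, with a read in at least 20% of the cells of each plate of the higher tissue and no cell giving over 25% of its reads, by the largest of their smallest ratios. In PF they began with Shisa3, Cygb and Car3. Developmental regulators followed, namely Msx1, a homeobox gene of skull growth, with 32.6 and 29.7 CPM against 0.81 and 1.02, and Six2, a homeobox gene of skeletal progenitors, with 26.03 and 28.8 against 0 and 3.06. Secreted and matrix members were the BMP family member Bmp3, the proteoglycan Epyc, the IGF-binding Igfbp2, the angiopoietin Angpt2, the coagulation inhibitor Tfpi, the phospholipid transfer protein Pltp and the glypican Gpc6. Igfbp2 had 481.6 and 325.9 CPM against 54.2 and 45.3. Epyc had 338.3 and 135.7 CPM against 8.10 and 16.9. Membrane and signalling members were Col13a1, Atp1b1, Ifitm5, Rassf2, Ramp2, Akap12, Dapk2 and Il10rb.

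In GP the list began with Ostn, followed by Bmp5, a BMP ligand with 0 and 0.041 CPM in PF and 122.9 and 78.9 in GP. Of the remaining genes, 8 were regulators of limb or body position (Hoxa10, Pitx1, Shox2, Mab21l2, Hoxa9, Hoxa11os, Hoxa11 and Hoxc10). Nr4a2, an immediate early nuclear receptor, had 0.85 and 0.66 CPM against 115.4 and 80.9. Tendon and matrix genes were Tnmd, Spon2, C1qtnf3, Angptl1 and Pamr1. C1qtnf3, a secreted protein of cartilage and tendon also called cartducin, had 110.6 and 36.3 CPM against 1564 and 1015, with reads in 11 PF cells and 46 GP cells. Crabp1, a retinoic acid binding protein, had 6.76 and 0 CPM against 73.9 and 56.9. The list also held Gpr126, an adhesion receptor, and Cav1, a component of caveolae. Of the 39 genes reported and Comp, all kept their side and their 2-fold call under 13 other settings, some of which gave smaller differences, except Ifitm5, Bmp3, Dapk2 and Gpc6, which fell below the 2-fold limit in at least 1 comparison when every cell was given equal weight. Some of these settings could not undo a call. Leaving out a plate only dropped comparisons that already held, and leaving out wells with Xist and Y-linked reads removed no cell.

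**Figure D2:**
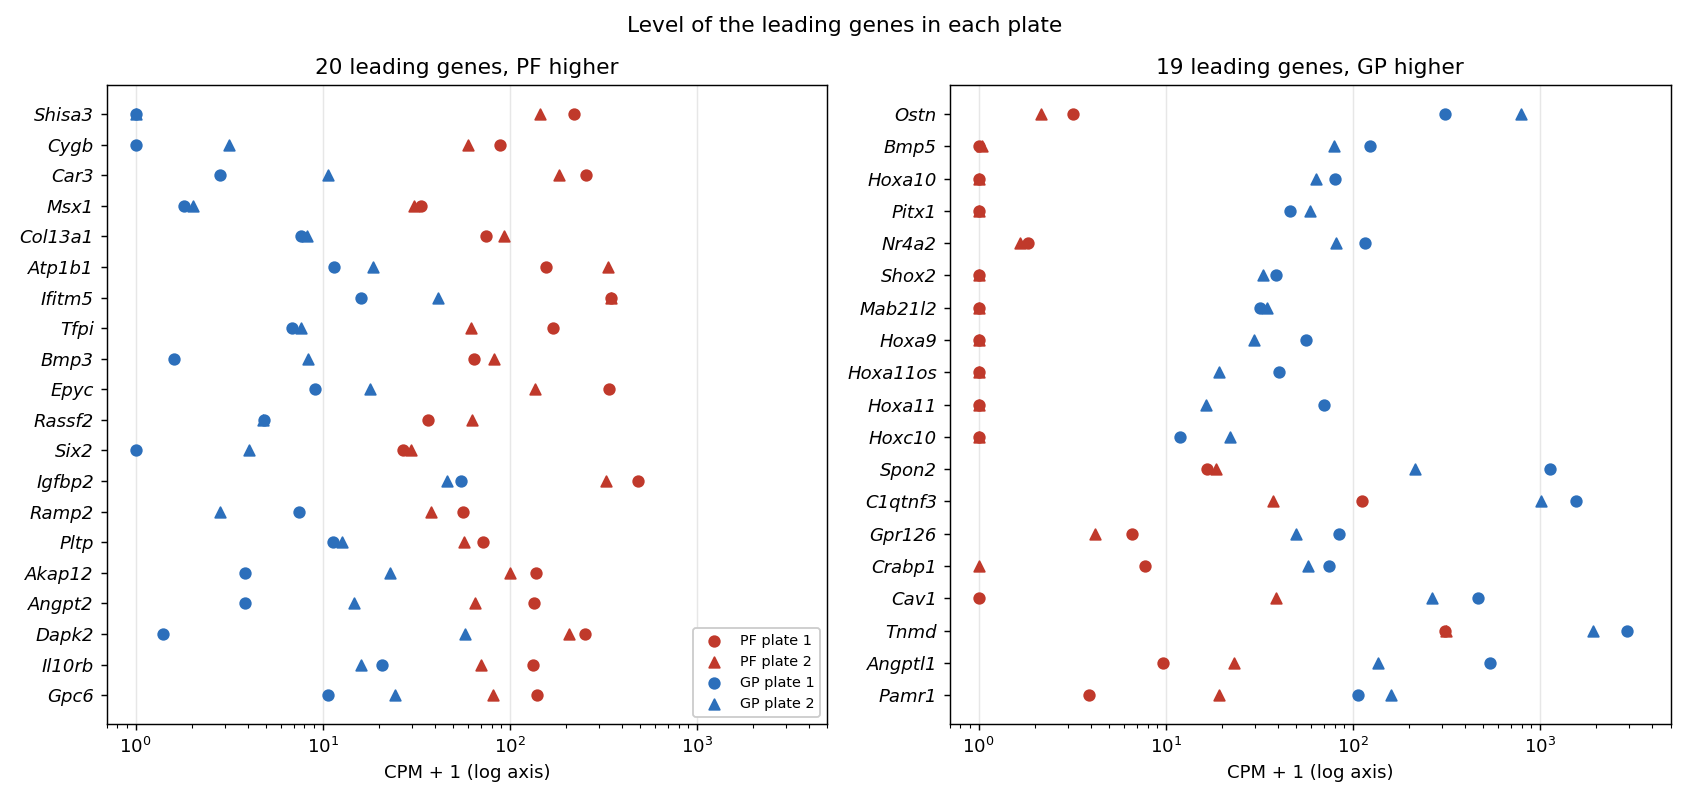
Level of the leading genes of each side, 20 for PF and 19 for GP, on each plate, as CPM + 1 on a log axis. Red marks are PF plates and blue marks GP plates, circles plate 1 and triangles plate 2. On every line the red and blue marks are apart, as the rule for leading genes requires, and 8 regulators of position in the right panel lie at 0 CPM on both PF plates.

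The summed levels of 2 lists of body position genes did not overlap between the plates of PF and GP. The hindlimb list had 1.18 and 0 CPM on the PF plates and 350.6 and 253.6 on the GP plates. The cranial list had 69.99 and 145.9 CPM on the PF plates and 5.87 and 9.14 on the GP plates. Of the 22 hindlimb position genes listed, 7 passed the filter on low levels, and these 7 were all 2-fold higher in GP, with a median log2 difference of -4.69. The list summed to 0.23 CPM in PF, so its members could pass the filter only through GP. The direction of this count was therefore largely set by the filter. Hoxa10, which patterns the hindlimb, had 0 CPM on both PF plates and 79.3 and 62.8 on the GP plates, with reads in 27 GP cells and at least 663-fold more in GP. Pitx1, which specifies the hindlimb, had 0 on both PF plates and 45.1 and 57.9 on the GP plates, with reads in 39 GP cells. Reads of at least 1 of the 22 genes were present in 76.9% of GP cells and 1.15% of PF cells. Hoxa11 and the antisense Hoxa11os overlap, so reads of the 2 cannot be told apart without strand. The remaining 15 genes of the list were below the filter, Hoxd9 to Hoxd13 with no read on any of the 4 plates.

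The head side of this comparison rested on fewer genes. Of 13 cranial position genes, 3 passed the filter, and all 3 were 2-fold higher in PF. This list summed to 8.57 CPM in GP, below the filter of 10 CPM, so its members could pass only through PF. Alx1, a homeobox gene of the face and frontal skull, had 25.2 and 63.6 CPM on the PF plates and 0 on both GP plates, in 14 PF cells. Zic4 had 7.61 and 24.4 CPM against 0, in 8 PF cells, and 1 cell gave 54% of its reads. Alx4 had 21.8 and 18.1 CPM against 0.40 and 4.97. Reads of at least 1 of the 13 genes were present in 55.2% of PF cells and 12.8% of GP cells.

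Among 43 factors of skeletal patterning that passed the filter, 12 were on the PF side, 8 of them by 2-fold, and 7 on the GP side, 2 of them by 2-fold. The 8 were Msx1, Msx2, Dlx3, Six2, Foxc2, Foxd1, Foxp2 and Tbx18. Foxd1, a forkhead factor, had 18.4 and 26.6 CPM on the PF plates and 0 on the GP plates, in 17 PF cells. Msx2, a homeobox gene of skull bone growth, had 22.1 and 40.5 CPM against 0 and 5.91. The 2 in GP were Shox2, a limb homeobox gene with 38.1 and 32.1 CPM against 0 in PF, and Ebf2, with 39.1 and 23.8 against 0 and 2.26. Twist1, a factor that restrains osteoblasts in sutures, was on the PF side with 18.1 and 24.1 CPM against 16.4 and 8.46. Runx2, which commits cells to the osteoblast lineage, differed little, with 53.1 and 56.2 CPM against 45.3 and 51.1.

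Genes of bone formation were mostly higher in PF. Of 29 osteoblast genes that passed the filter 19 were on the PF side, 9 of them by 2-fold, and 3 on the GP side, 1 of them by 2-fold, with a median log2 difference of 1.06. Sp7, the osteoblast factor also called osterix, had 237.4 and 229.1 CPM on the PF plates and 11.7 and 67.995 on the GP plates, in 31 PF cells and 18 GP cells. Bglap, the osteoblast protein osteocalcin, had 1443 and 1294 CPM against 4.05 and 229.4, in 22 PF cells and 16 GP cells, and 86% of its GP reads came from 1 cell. Its near-identical neighbour Bglap2 had 593.4 and 756.8 CPM against 1.21 and 150.5, and reads may have been split between the 2 copies. Dmp1, a mineral protein of late osteoblasts, had 1760.4 and 1294 CPM against 224.7 and 55.1, but 71% of its PF reads came from 1 of 10 cells. The exception on the GP side was the collagen Col24a1, with 23.7 and 25.9 CPM against 101.4 and 85.5.

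Mineralization genes followed. Of 20 that passed the filter 9 were on the PF side, 6 by 2-fold, and 3 on the GP side, 0 by 2-fold, with a median of 0.99. This recounts genes in part, since Dmp1, Bglap, Bglap2 and Smpd3 are on both lists and Car3 is one of the markers above. The summed level of the list was on neither side, at 77712 and 29188 CPM in PF and 3589 and 45837 in GP. Smpd3, a sphingomyelinase needed for mineralization, had 264.1 and 192.0 CPM against 0 and 39.1. Alpl, the phosphatase of mineralizing matrix, was on the PF side at 1351 and 919.9 CPM against 317.4 and 490.8, with reads in 66 PF cells and 40 GP cells. The abundant matrix genes did not separate the plates. Spp1, the bone phosphoprotein osteopontin, was at 68300.1 and 20662 CPM in PF and 556.6 and 39114 in GP, and Sparc, which binds collagen, at 47772 and 30472 in PF and 35635 and 30497 in GP.

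Tendon genes lay on the other side. Of 15 tenocyte genes that passed the filter 8 were on the GP side, 7 of them by 2-fold, and 1 on the PF side by less, with a median log2 difference of -2.62. Scx, the transcription factor of tendon progenitors, had 6.26 and 9.47 CPM on the PF plates and 36.6 and 64.3 on the GP plates, in 4 PF cells and 28 GP cells. Thbs4, a tendon thrombospondin, had 0 CPM on both PF plates and 1459 and 249.9 on the GP plates, in 16 GP cells, at least 4643-fold more in GP. Kera, a keratan sulfate proteoglycan, had 0 against 159.9 and 87.2. The PF exception was Wif1, a secreted Wnt inhibitor, with 790.5 and 899.0 CPM against 510.9 and 581.0. Mkx, a tendon homeobox gene, was not on one side, with 21.6 and 75.3 CPM against 138.6 and 66.5.

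Matrix families did not all lean to the same side. Among 21 matricellular genes 8 were on the GP side and 3 on the PF side, 6 and 2 of them by 2-fold. Postn, periostin, had 1352 and 854.6 CPM against 5922 and 6191, in 53 PF cells and 61 GP cells. Nov, a CCN family protein, had 47.7 and 63.03 against 332.4 and 729.8. Among 15 small leucine-rich proteoglycans 8 were on the GP side and Epyc alone on the PF side. Aspn, asporin, had 417.6 and 619.8 CPM against 3674 and 2746, and Ogn, osteoglycin, 1129 and 1113 against 5278 and 3099. Among 23 elastic fibre and microfibril genes 8 were on the GP side, 4 by 2-fold (Fbln2, Fbln5, Fbln7 and Emilin3), and 3 on the PF side, 0 by 2-fold, and the median of 0.18 lay above that of all genes. Collagen folding and crosslinking enzymes were on both sides, 10 of 30 in PF and 7 in GP, where 17.4% and 19.2% of all genes lay. Their summed level was on the PF side, at 14249 and 12646 CPM against 11933 and 10818. The summed fibrillar and fibre-associated collagens were too, at 195527 and 145753 CPM against 122042 and 139679. Of these 12 collagen genes 3 were on the PF side and 5 on the GP side.

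The growth plate label was checked against cartilage genes, and they were carried by a minority of cells. Of 8 cartilage matrix genes, at least 4 were read in 11 of 78 GP cells, 14.1% (7.26 to 23.8), and in 3 of 87 PF cells, 3.45% (0.72 to 9.75). All 11 were on GP plate 2, and 0 of the 20 cells of GP plate 1 met this. Col2a1, the main collagen of cartilage, had 1.18 and 58.7 CPM on the PF plates and 53.4 and 2831 on the GP plates, so the highest PF plate lay above the lowest GP plate, with reads in 8 PF cells and 21 GP cells. Col10a1, the collagen of hypertrophic chondrocytes, had 0 CPM on both PF plates and on GP plate 1 and 5917 on GP plate 2, in 13 cells. Of 24 chondrocyte genes that passed the filter 7 were on the GP side, 5 by 2-fold, and Epyc and Matn4 on the PF side, both by 2-fold. Of the 9 hypertrophic genes that passed, 3 were on the PF side, Panx3, Pth1r and Alpl, and all 3 are also expressed by osteoblasts. Col10a1 was the gene with the greatest summed difference on the GP side and still did not meet the rule, because of plate 1.

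**Figure D3:**
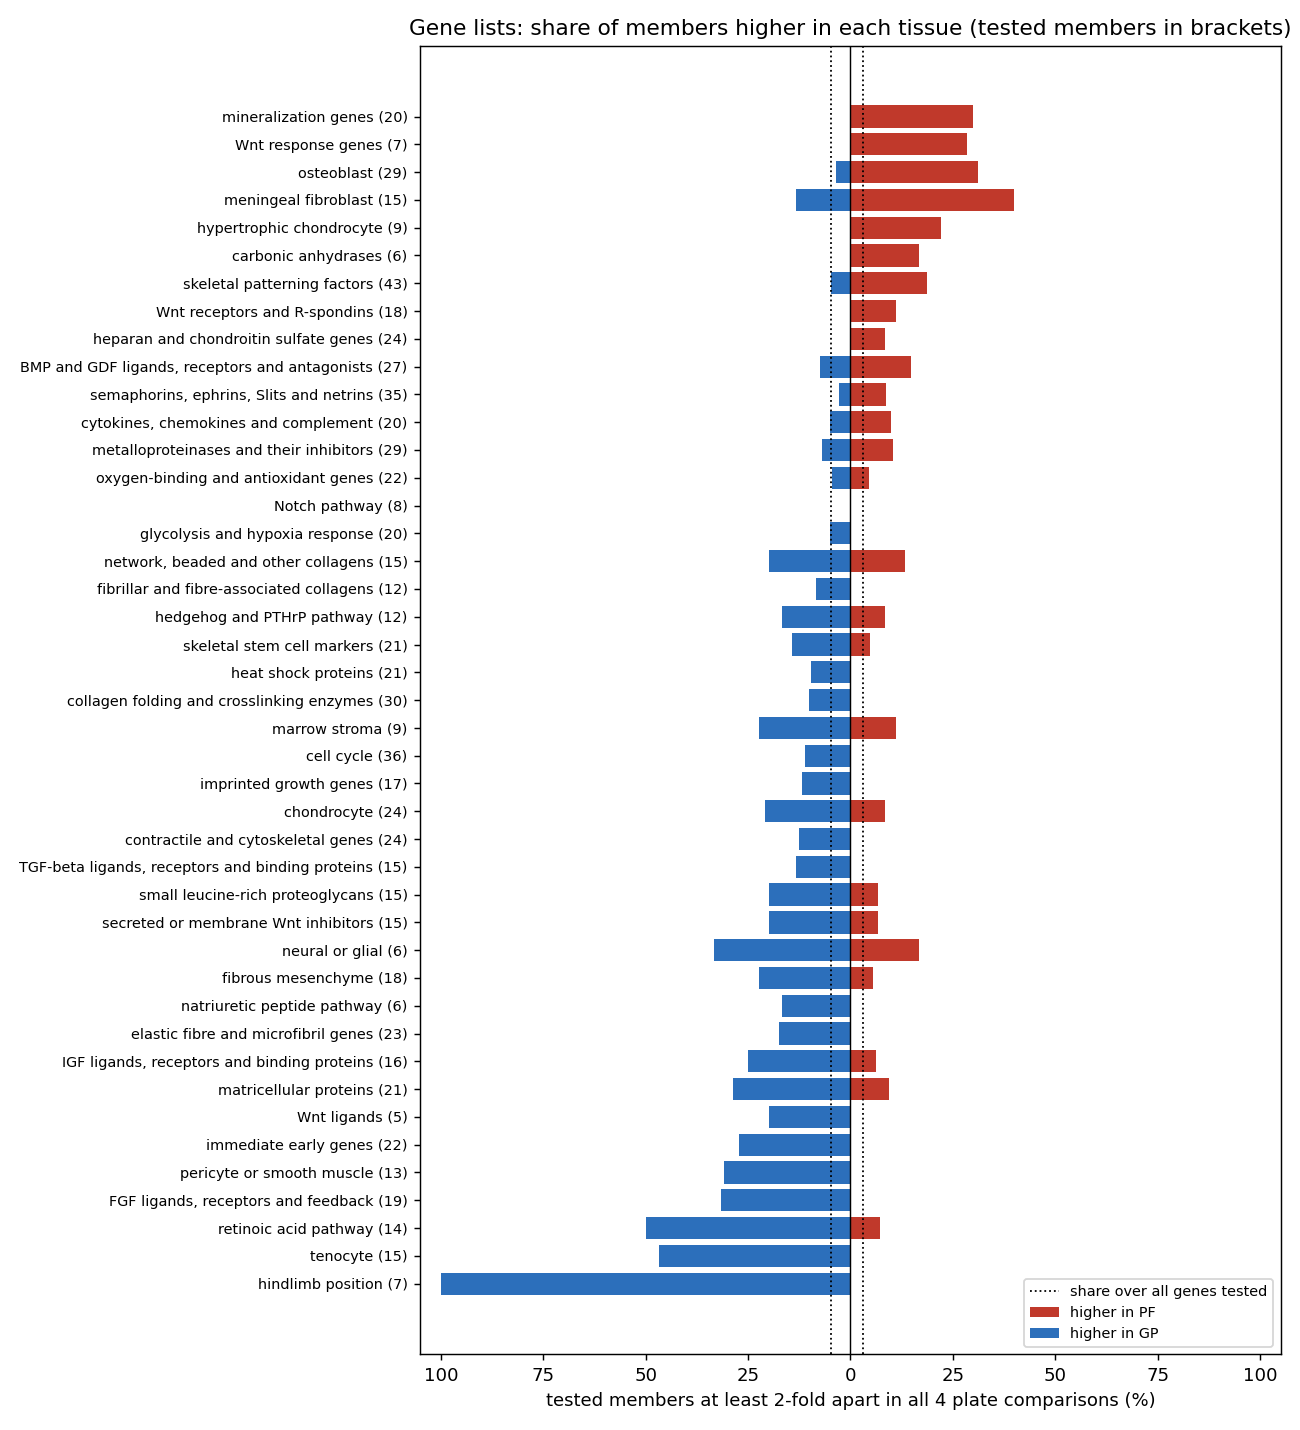
For each gene list with at least 5 members above the filter (number in brackets), the share of those members at least 2-fold higher in PF (red, to the right) or in GP (blue, to the left) in all 4 plate comparisons, in percent. Dotted lines mark the shares over all genes, 3.04% and 4.75%. The hindlimb list reaches 100% on the GP side, but its members passed the filter only through GP. Osteoblast and mineralization genes extend to the right, at 9 of 29 and 6 of 20, and these lists share members.

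Wnt receptors and response genes did not lean to one tissue in their summed level, whereas the ligands leaned to GP. The summed ligands had 71.2 and 103.1 CPM on the PF plates and 145.3 and 145.4 on the GP plates. At least 1 ligand was read in 35.6% of PF cells (25.6 to 46.6) and 65.4% of GP cells (53.8 to 75.8). Of 5 ligands that passed the filter 1 was on the PF side and 2 on the GP side. The summed inhibitors were on the GP side by less, at 3355 and 3190 CPM against 3703 and 3421. Among ligands, Wnt5a, a ligand of limb outgrowth, was on the GP side with 14.4 and 32.3 CPM against 91.5 and 53.5, and Wnt16 had 0 in PF and 13.97 and 17.98 in GP. Wnt9a was on the PF side with 19.6 and 25.4 CPM against 14.6 and 3.23. Among 18 receptors and R-spondins 3 were on the PF side and 4 on the GP side. Lrp4, a co-receptor that binds the inhibitor sclerostin, had 20.1 and 64.4 CPM against 8.70 and 8.71, with reads in 42 PF cells and 15 GP cells. Among 15 inhibitors 4 were on the PF side and 5 on the GP side. Beside Shisa3 these were Dkk1 at 64.6 and 48.4 CPM against 27.7 and 1.40, Sfrp2 and Wif1 in PF, and Sfrp4, Sfrp5, Sostdc1, Dkk3 and Shisa2 in GP. Sfrp4 had 60.5 and 12.3 CPM against 310.3 and 493.6. Among 7 response genes 2 were on the PF side, both by 2-fold, and 3 on the GP side by less, with a median of -0.005. Those in PF were Tcf7, a nuclear partner of beta-catenin, with 97.2 and 24.9 CPM against 7.69 and 6.205, and Tnfrsf19, with 193.2 and 135.7 against 27.5 and 55.6.

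BMP ligands differed between the tissues by member. Of 27 genes of this family that passed the filter 6 were on the PF side, 4 by 2-fold, and 8 on the GP side, 2 by 2-fold. Bmp3, an antagonistic family member made by osteoblasts, had 63.6 and 81.6 CPM in PF and 0.61 and 7.39 in GP. Gdf10, a related ligand, had 169.6 and 136.2 CPM against 61.5 and 25.7, in 39 PF cells and 10 GP cells. The receptor Acvr1 had 63.4 and 69.6 CPM against 27.7 and 14.8. In GP, Bmp5 was joined by the antagonist Grem1, with 0 in PF and 97.4 and 14.2 CPM in GP, in 9 cells. The response genes Id1, Id2 and Id3 were not on one side.

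Most of the FGF and retinoic acid genes that were 2-fold apart were higher in GP. Of 19 FGF genes 6 were 2-fold higher in GP and 0 in PF. They were the ligands Fgf9 and Fgf10, the feedback inhibitors Spry1, Spry4 and Dusp6, and Fibin, a secreted factor of limb development. Dusp6, a phosphatase induced by FGF signals, had 9.30 and 15.4 CPM against 90.9 and 78.96, in 6 PF cells and 16 GP cells, but without the few cells with glial reads described below it was not on one side, with 9.30 and 13.7 against 54.5 and 9.33. Fibin had 165.8 and 186.3 CPM against 1204 and 650.8. The receptors Fgfr1 and Fgfr2 were on the PF side by less than 2-fold. Of 14 retinoic acid genes 7 were 2-fold higher in GP and 1 in PF. The synthesizing enzymes divided, with Aldh1a2 at 64.7 and 16.6 CPM in PF against 0 and 0.0425 in GP, and Aldh1a3 at 0 in PF against 45.7 and 48.7 in GP. The degrading enzymes Cyp26a1 and Cyp26b1 and the carrier Rbp4 were on the GP side.

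Other signals gave single members. Of 16 IGF genes 4 were 2-fold higher in GP and 1 in PF, and the binding proteins divided, with Igfbp2 higher in PF and Igfbp3 and Igfbp6 in GP. Igfbp6 had 3.38 and 35.1 CPM against 318.8 and 159.8. The ligands Igf1 and Igf2 were not on one side. Of 15 TGF-beta genes 7 were on the GP side and 3 on the PF side. Tgfb2 had 65.3 and 48.6 CPM against 145.7 and 161.8, and its receptor Tgfbr1 6.26 and 24.2 against 73.9 and 49.6. Il33, a nuclear cytokine of barrier and stromal cells, had 96.7 and 168.5 CPM in PF and 0 and 0.042 in GP, with reads in 19 PF cells and 1 GP cell. The opioid precursor Penk had 3.55 and 73.8 CPM against 1995 and 1412, in 10 PF cells and 45 GP cells.

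Immediate early genes, which cells switch on within minutes of a stimulus, were on the GP side. Of 22 that passed the filter 13 were on the GP side, 6 by 2-fold, and 0 on the PF side, with a median log2 difference of -1.82. The summed level of the 27 listed genes was 740.3 and 943.9 CPM on the PF plates and 2297 and 3111 on the GP plates. Fos had 217.7 and 243.8 CPM against 719.6 and 896.3, in 10 PF cells and 32 GP cells. Nr4a1 had 0.34 and 28.7 CPM against 82.8 and 150.9. Cells with 5 or more of the 27 genes made up 33.3% of PF (23.6 to 44.3) and 65.4% of GP (53.8 to 75.8), and 37.1% and 67.2% after thinning. These genes also respond to tissue dissociation and sorting, and handling of the 2 tissues before the sort cannot be told apart from tissue. Heat shock genes, which respond to similar stress, had 5 of 21 on the GP side and 2 on the PF side, where 19.2% and 17.4% of all genes lay.

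Contractile and cytoskeletal genes were likewise on the GP side, 15 of 24, with 3 by 2-fold and 0 on the PF side, and a median of -0.51. The 3 were Acta2, Tagln and Cnn1, the smooth muscle actin, transgelin and calponin. Acta2 had 736.2 and 502.3 CPM against 1704 and 1618, but reads in 30 PF cells and 15 GP cells, and 1 GP cell gave 69% of its GP reads and 75% of those of Tagln. Of 13 pericyte or smooth muscle genes that passed the filter 5 were on the GP side and 0 on the PF side. Lmna, the nuclear lamin A, had 484.3 and 596.7 CPM against 1089 and 887.8, in 71 PF cells and 70 GP cells.

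A few GP cells carried glial RNA, and several counts turned on them. Sox10, Mbp and Erbb3, a transcription factor, a myelin gene and a neuregulin receptor, are genes of Schwann cells, the glia that wrap nerves. Reads of at least 2 of the 3 were present in 6 GP cells (2 on plate 1 and 4 on plate 2) and 1 PF cell (on plate 2). Mbp had 0 and 94.8 CPM on the PF plates and 264.5 and 372.5 on the GP plates. The summed level of the 10 neural or glial genes was 44.6 and 289.5 CPM on the PF plates and 466.5 and 462.6 on the GP plates, with Elavl4 and Stmn2 at 0 throughout. Nearly all GP reads of Dhh, the hedgehog ligand of Schwann cells (99.95%), of the retinoid receptor Rxrg (99.9%) and of the collagen Col28a1 (99.8%) came from these cells, with 96.4% of those of Sfrp5. None of the GP reads of Aldh1a3, Cyp26a1, Wnt16, Hhip and Ebf2 did.

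Without the 7 cells, in an alternative chosen after seeing the data, 1804 of 9408 genes were on the PF side (19.2%) and 1590 on the GP side (16.9%). The 2-fold counts became 367 (3.9%) and 358 (3.81%), and PF thus held 50.6% of the 2-fold genes in place of 39.01%. Of the 455 genes 2-fold higher in GP, 316 were still so and 139 were not, while 272 of the 291 in PF were still so. The hindlimb, tenocyte and immediate early counts were then 8 of 8, 7 of 15 and 8 of 22 by 2-fold in GP, and the osteoblast count 8 of 29 by 2-fold in PF. The retinoic acid count was 6 of 13 by 2-fold in GP, without Rxrg. Of the 165 genes named or listed that were 2-fold apart, 19 were not without these cells. In GP these included Dusp6, Fbln7, which had 0 and 87.6 CPM on the GP plates without them, Tgfbr1, Sostdc1 and Sfrp5, and in PF Pth1r and Matn4, which kept their side.

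The cell cycle list turned on these cells. With all cells, 18 of 36 genes were on the GP side, 4 by 2-fold, and 2 on the PF side, 0 by 2-fold. Without the 7 cells 10 of 32 were on each side, and 9 were 2-fold higher in PF (Mki67, Ccnb1, Ccna2, Bub1, Cenpa, Cenpe, Tpx2, Kif23 and Cdc20) against 2 in GP (Top2a and Mcm6). The 6 GP cells held 8.51% of all GP reads and 22.1% of those of the list. Mki67, the proliferation antigen Ki-67, had 17.6 and 16.3 CPM on the PF plates, 30.97 and 19.4 on the GP plates, and 0 and 5.41 on the GP plates without these cells. Ccnb1, cyclin B1, had 20.96 and 21.9 CPM in PF, 0 and 51.3 in GP, and 0 and 0.233 without them. Mcm6, a replication helicase subunit, kept its side, with 67.5 and 64.1 CPM in PF, 197.3 and 161.2 in GP, and 211.5 and 173.9 without them. Few cells of either tissue carried mitotic genes, with at least 4 of 8 read in 3 PF cells and 4 GP cells, 2 of which were among the 6.

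**Figure D4:**
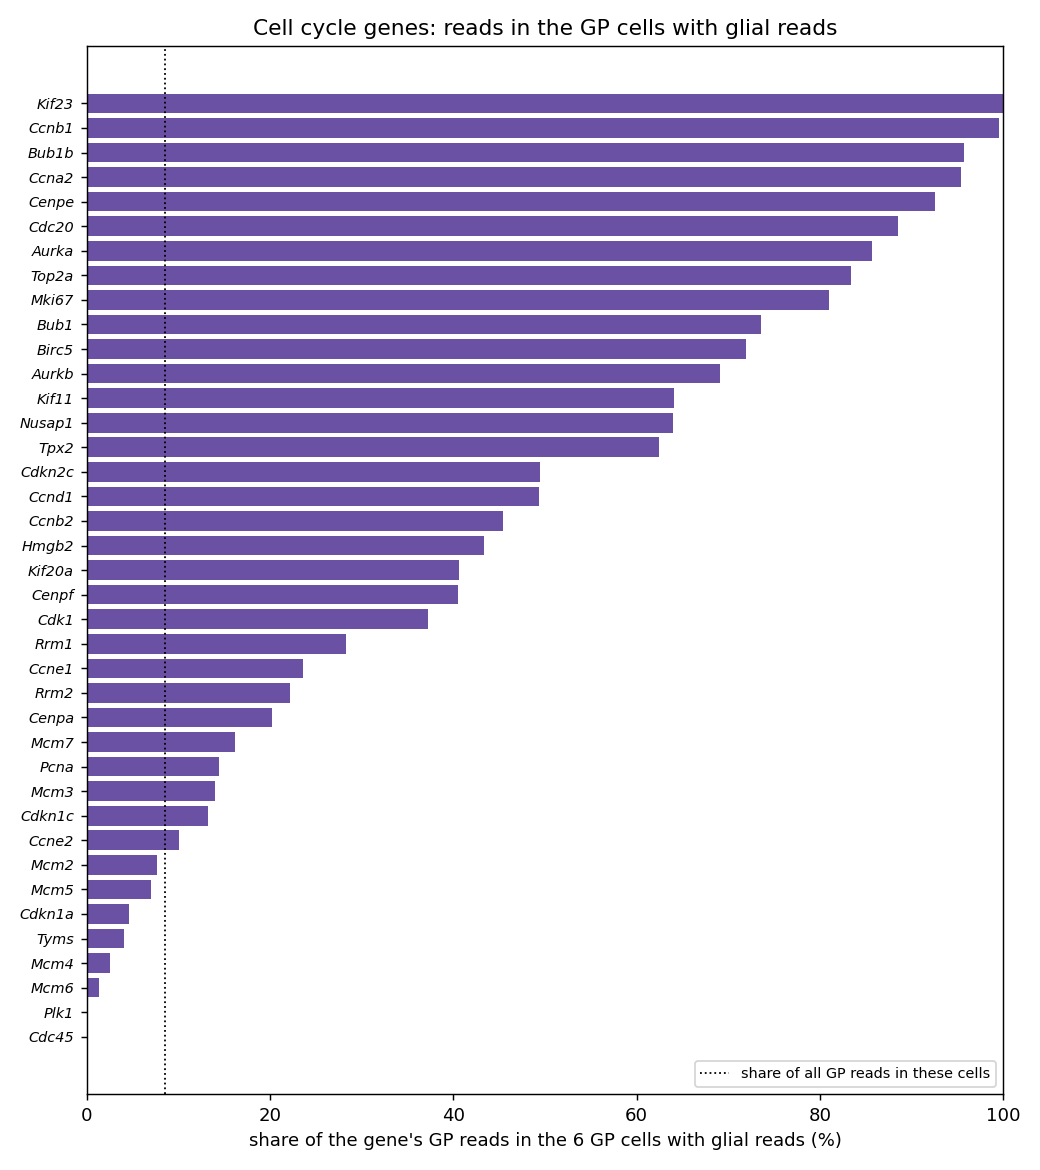
For each cell cycle gene with at least 10 CPM on some plate, the share of its GP reads that came from the 6 GP cells with glial reads, in percent. The dotted line marks the 8.51% of all GP reads that these cells held, and the shares run from 0 to 100%. Among mitotic genes Kif23 lies at 100%, Cenpf at 40.5% and Plk1 at 0, and among replication genes Rrm1 lies at 28.3% and Mcm6 at 1.34%.

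Markers of other cell types were checked on the whole lists. Of 13 endothelial genes 6 (Pecam1, Emcn, Tek, Tie1, Cldn5 and Flt1) had no read on any of the 4 plates. The list summed to 65.9 and 69.3 CPM in PF and 60.9 and 31.1 in GP, higher in PF in all 4 comparisons. At least 1 of the 13 was read in 36.8% of PF cells (26.7 to 47.8) and 12.8% of GP cells (6.32 to 22.3). Of the 2 that passed the filter 1 was on each side, and Ramp2, a leading PF gene, was 2-fold higher in PF. The 15 haematopoietic genes summed to 41.4 and 18.9 CPM in PF and 20.2 and 32.6 in GP, with both listed globin genes at 0. The 13 skeletal muscle genes summed to at most 28.1 CPM on a plate, with Myod1 and Myog at 0. Osteoclast genes were not on one side, and Ocstamp, Dcstamp, Oscar and Calcr were at 0. Of 12 adipocyte genes 3 passed the filter, among them Car3 and the apolipoprotein Apoe, which had 948.1 and 1344 CPM in PF and 62.5 and 240.6 in GP, while the defining genes Adipoq, Plin1, Cfd, Cidec, Retn and Lep were at 0.

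Genes of the meninges, the membranes beneath the skull, were more often 2-fold higher in PF than in GP. Of 15 that passed the filter 6 were 2-fold higher in PF and 2 in GP, with a median of 2.12. Those in PF were Aldh1a2, Cldn11, Slc47a1, Foxc2, Foxd1 and Tbx18, and those in GP were Penk and Moxd1. Cldn11, a claudin of the arachnoid layer, had 257.8 and 99.5 CPM on the PF plates and 26.9 and 0.0425 on the GP plates, in 12 PF cells and 3 GP cells. Slc6a13 and Slc22a6, transporters of the meninges, had no read on any plate. The list as a whole summed to 1089 and 1631 CPM in PF and 2839 and 3987 in GP, the opposite direction, with Penk and Mgp as its most abundant members. The part of meningeal cells in the PF genes was not tested. Outside the naming rule and chosen after its values were seen, Ttr, the thyroxine carrier transthyretin that choroid plexus secretes in quantity, had 1.86 and 3879 CPM in PF and 0 in GP, and 71% of its PF reads came from 1 of 4 cells.

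Cells were also described by 3 sets of 5 genes each, and a cell was counted with a set when at least 3 were read. The sets were chosen after their values were seen, the first and second from genes higher in PF and the third from genes higher in GP, so the differences in count between the tissues and the separation of the sets restate that choice. The first set (Shisa3, Cygb, Igfbp2, Akap12 and Atp1b1) was present in 34 of 87 PF cells, 39.1% (28.8 to 50.1), and in 1 GP cell. The osteoblast set (Ifitm5, Dapk2, Col13a1, Sp7 and Slc36a2) was present in 27 PF cells, 31.03% (21.5 to 41.9), and in 7 GP cells, 8.97% (3.68 to 17.6). The tendon set (Tnmd, Aspn, Postn, C1qtnf3 and Abi3bp) was present in 38 PF cells, 43.7% (33.1 to 54.7), and in 47 GP cells, 60.3% (48.5 to 71.2). Its name is a label and does not make these PF cells tendon cells. Aspn is also listed for fibrous mesenchyme and Postn for skeletal stem cells, and the tendon genes Thbs4 and Kera were absent from PF. Both PF plates held the first set, in 15 and 19 cells, and the osteoblast set, in 11 and 16.

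In PF, 1 cell had both the first set and the osteoblast set, 24 had the first and the tendon set, 3 had the osteoblast and the tendon set, and 16 had none. Across the 87 PF cells the Spearman correlations between genes of the first set ran from 0.45 to 0.74, within the osteoblast set from 0.60 to 0.84, and between the 2 sets from -0.50 to -0.32. Within the tendon set they ran from -0.11 to 0.42 in PF. Across the 78 GP cells those within the tendon set ran from 0.41 to 0.73 and within the osteoblast set from -0.03 to 0.59, and 26 cells had none of the sets. These describe cells that share a library plate and depth, and carry no test.

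**Figure D5:**
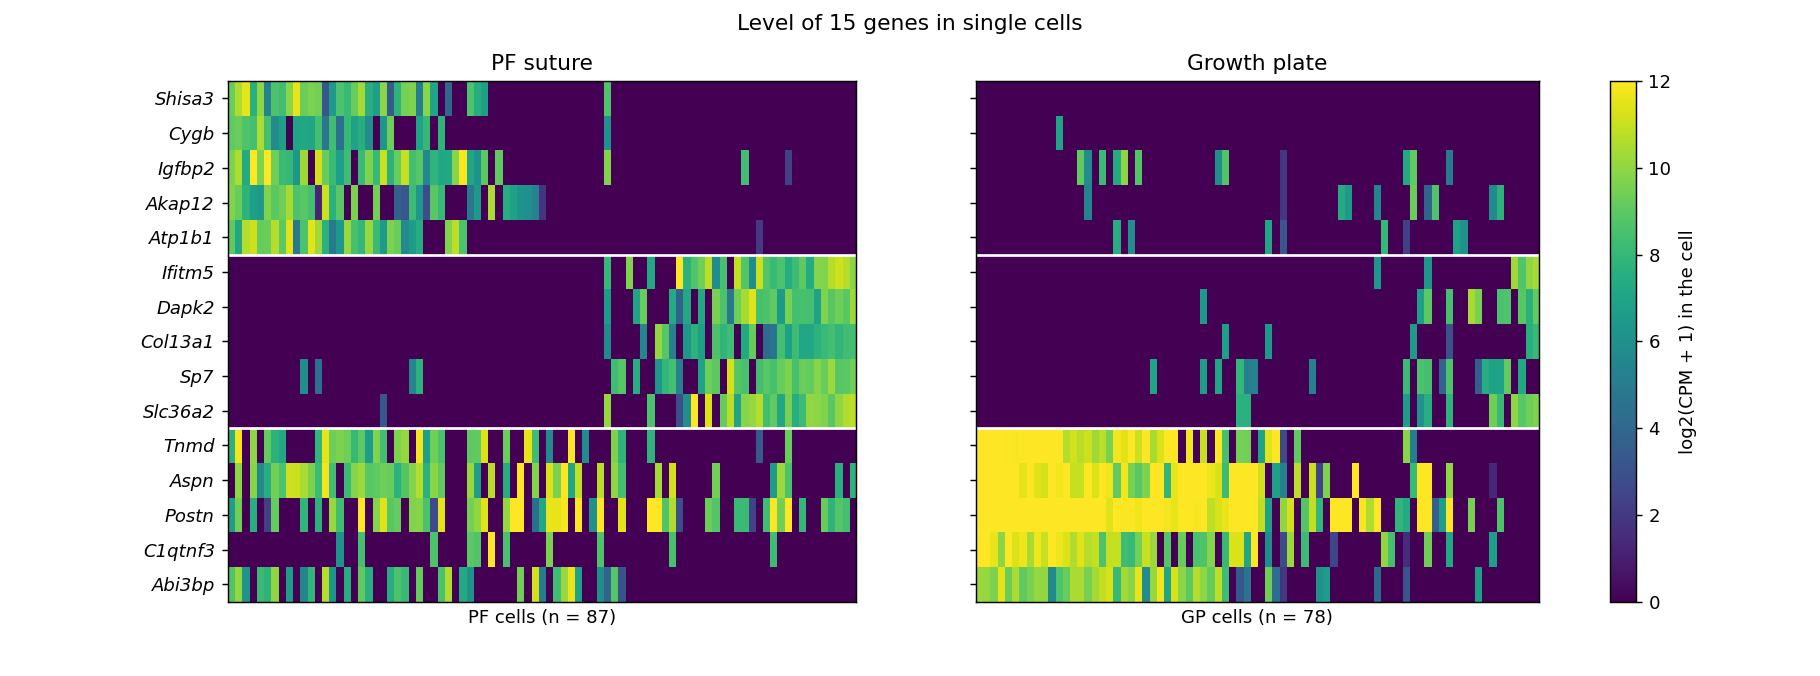
Level of the 15 genes of the 3 sets in each PF cell (left, 87 columns) and GP cell (right, 78 columns), as log2(CPM + 1) by colour from 0 (dark) to 12 (yellow). Cells are ordered by the osteoblast set minus the first set in PF and minus the tendon set in GP, so the order itself is made from these values. Counting a block where at least 3 of its 5 genes were read, 1 PF cell had both the top and middle blocks. By the same count 47 GP cells had the bottom block. Single genes of the top and middle blocks were read together in more PF cells, such as Igfbp2 and Sp7 in 6.

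The other sutures placed these genes as follows. The first set was present in 14 of 74 COR cells, the osteoblast set in 24 and the tendon set in 39, and in 2, 5 and 9 of 86 SAG cells. Shisa3 had 43.9 and 156.1 CPM on the COR plates and 0 and 100.3 on the SAG plates. Comp had 0 on both COR plates and 726.1 and 57.7 CPM on the SAG plates. Car3 had 277.6 and 74.4 CPM in COR. Hoxa10, Pitx1 and Shox2 had no read in COR or SAG. Postn was at 4185 and 6331 CPM in COR, near its GP level, and Aspn at 1550 and 2274. Comparisons with COR or SAG share the PF and GP cells used above, and SAG plate 2 stood apart from all other plates in its Rn45s share, so these levels are set side by side with no further comparison.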

How the data were processed

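Full-length cDNA libraries had been made from single cells sorted into plates, 1 cell to a well, and each cell is 1 record. The authors deposited raw read counts per gene and cell in 8 tables, 1 per plate, of 24015 genes each. The protocol has no molecular identifiers, so these are reads after PCR. The submitters' processing notes name STAR 2.5.3a, HTSeq, Seurat 2.3.0, R 3.4.4 and build mm9. The counting settings and the use of strand are not given in the sources used here, so overlapping genes cannot be told apart and near-identical copies (Bglap and Bglap2, Hspa1a and Hspa1b) are uncertain. Every column was mapped to its record, and 0 columns were unused.

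Cells were grouped by title and kept where 500 or more genes were read and the reads, Rn45s included, came to 10000 or more. That removed 14 PF cells and 7 GP cells. Reads were summed by plate, divided by the total without Rn45s, and compared as log2 of CPM with a pseudocount of 1 over genes with at least 10 CPM in PF or GP. Wells of the same name recurred in PF and GP, 11 on plate 1 and 39 on plate 2, no 2 cells had equal counts, and the highest correlation between a PF and a GP cell was 0.608. Cells had been sorted singly, so no doublet caller was run, and 0 of these cells were read for Xist together with a Y-linked gene.

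Intervals were exact binomial (Clopper-Pearson) at 95% and cover counting error only. No test between tissues was made, because each tissue is 1 sample. Genes named were the 5 markers (Shisa3, Cygb, Car3, Ostn and Comp), the 20 leading genes of each side by the rule given in the report, and from each of 50 gene lists up to 4 members on one side and the 2 most abundant of the rest; a few further members that define a cell type or role were chosen after their values were seen. Some genes are not reported here, 1 leading GP gene among them, and were left out of the lists. The members and lists were chosen with earlier results of these data known. Alternatives were other filters, scalings, pseudocounts and weights, thinning to 100000 reads, leaving out each plate or the cell with most reads and, chosen after seeing the data, leaving out cells with glial reads. Scripts were tested on simulated counts. Python 3.11.15, pandas 2.3.3, scipy 1.17.1 and, for TMM factors, edgeR 4.0.16 were used.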

Additional observations from a re-analysis of the deposited data

How the results depend on the processing

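With 1 sample per tissue and 2 plates in it, fewer plates gave higher counts of genes on one side. When 1 plate was left out the counts ran from 2723 to 4186 on the PF side and from 2581 to 4114 on the GP side, and by 2-fold from 622 to 1264 and from 737 to 1717, which follows from the rule, since 2 comparisons in place of 4 then had to hold. The highest values came without PF plate 1 (4186), PF plate 2 (4114 and 1717) and GP plate 2 (1264). PF held 59.03% of the 2-fold genes without PF plate 1, 51.5% without GP plate 2, 41.8% without GP plate 1 and 31.07% without PF plate 2. A pseudocount of 10 CPM gave 138 and 213 genes by 2-fold. A minimum of 50 CPM gave 786 and 831 on one side and 92 and 138 by 2-fold, as fewer genes were compared. The median of all genes was 0.01 with TMM factors, 0.18 with Rn45s counted and -0.26 without PF plate 2.

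Some values turned to the other sign. With every cell weighted equally these were the summed Wnt inhibitors (0.048), Prg4 (0.21) and Fzd1 (0.31), and without the cell with most reads the osteoclast list (0.0015). Without the cells with glial reads they were the neural or glial list (1.43), Nkd1 (0.082), Heyl (-0.89), Notch1 (1.78), Rxrg (0.33) and Sod3 (0.40). The cause was not tested, except that 99.9% of the GP reads of Rxrg came from the cells removed. Leaving out wells with reads of Xist and a Y chromosome gene changed nothing, because PF and GP held 0 such wells. Of the values for single genes under the alternatives, 2716 moved by less than the spread between plates, 475 moved by more and 7 turned. No paired analysis was possible because plate numbers do not pair the tissues and no test was made. Depth limits what a 0 shows to the share of cells with a read.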

Other observations

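Guidance receptors held single genes with a clear side. Of 35 genes of semaphorins, ephrins, Slits and netrins that passed the filter 8 were on the PF side, 3 by 2-fold, and 7 on the GP side, 1 by 2-fold, with a median log2 difference of 0.32. Over all genes, 17.4% lay on the PF side and 19.2% on the GP side, so the list as a whole was near these shares. Epha7, an ephrin receptor, had 81.7 and 94.6 CPM on the PF plates and 0 and 3.36 on the GP plates, with reads in 16 PF cells and 3 GP cells. Epha5, a related receptor, had 2.03 and 10.5 CPM in PF and 22.7 and 35.8 in GP, and was no longer 2-fold apart without the cells with glial reads. Of 29 metalloproteinases and inhibitors 11 were on the PF side and 5 on the GP side. Timp1, an inhibitor of these enzymes, had 226.7 and 321.0 CPM against 93.9 and 78.7, with reads in 54 PF cells and 41 GP cells.

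Imprinted growth genes were on the GP side where they had one, 6 of 17, with 0 on the PF side and a median of 0.07. Mest, a paternally expressed gene of fetal growth, had 1005 and 645.7 CPM on the PF plates and 4014 and 3167 on the GP plates, with reads in 55 PF cells and 62 GP cells. Dlk1, a paternally expressed membrane protein of progenitors, had 2.54 and 4.55 CPM against 44.1 and 18.7. Of 21 genes used as markers of skeletal stem cells 5 were on each side, 1 by 2-fold in PF and 3 in GP, where 17.4% and 19.2% of all genes lay on one side. The summed level of the 24 listed markers was 4329 and 4245 CPM on the PF plates and 11135 and 10316 on the GP plates. The genes of the sorted proteins did not separate the tissues. Cd200 had 159.6 and 183.9 CPM in PF and 218.6 and 103.4 in GP, and Itgav, which encodes CD51, 68.3 and 94.7 against 71.04 and 77.3. Of 20 genes of glycolysis and hypoxia 8 were on the GP side, 1 by 2-fold, and 1 on the PF side by less.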
